A study of Mus musculus with 4 samples.

Results

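Dpt and Clec3b fibroblasts were the fibroblasts of MC38 tumors that held more UMIs of Dpt, Clec3b and Pi16 than of Acta2, Tagln, Tnc and Tnn. They numbered 1029 cells of 33228 barcodes in 4 single-cell RNA-seq libraries. The members were chosen by measured values. A barcode needed more than 1000 genes, at least 20 UMIs (unique molecular identifiers, each standing for 1 captured transcript) of Col1a1, Col1a2 and Col3a1 together and at least 1 of Pdgfra. It could hold at most 1 UMI of the MC38 genes Rhox5 and Prl2c2 together and none of Ptprc (the gene of CD45) or Pecam1. Lists of 4 values below keep 1 order of the libraries, WT before A159V tumors and, within each, IgG before anti-PD1. This gate took 98, 1014, 117 and 144 cells. Of these, 70, 758, 84 and 117 were members, 27, 246, 33 and 25 stood on the Acta2 and Tnc side (the other gated fibroblasts), and 1, 10, 0 and 2 were ties left out of both. WT anti-PD1 therefore gave 73.7% of all members.

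The series compared MC38, a mouse colon adenocarcinoma line, with and without a RAC1 A159V mutation placed in the endogenous gene by CRISPR-Cas9, as subcutaneous tumors in C57BL/6 mice given either anti-PD1 antibody or an IgG control. The mutation is carried by the tumor cells only, so the host fibroblasts were wild type in all 4 groups, and all mice received MC38 cells and an antibody. Xist, the RNA of the inactive X chromosome, stood at 753 to 865 CPM (UMIs per 1000000 UMIs of the summed cells) in members and at 2.91 to 16.8 in tumor cells of the 4 libraries. The groups, named WT or A159V with the antibody, were 1 library each, and the labels do not say how many tumors each pooled. Data of a single edited clone are shown in the study unless it says otherwise. Immune (CD45+) and remaining (CD45-) cells were sorted with magnetic beads and pooled again in a chosen proportion. The balance of immune and other cells thus follows the pooling, and it still differed between libraries. Barcodes without a Ptprc UMI were 2244 of 6163, 1818 of 5336, 3243 of 6274 and 2369 of 7216 with more than 1000 genes. Ages and sexes of the mice of each library are not given in the labels. With 1 library per group there is no replicate, so no test between groups was possible. Intervals below are 95% intervals that cover counting error only, and a library and its group cannot be told apart.

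Fibroblasts make and remodel the collagen matrix of connective tissue. Those marked by Pi16, Dpt, Clec3b, Dpp4 and Cd34 line vessels and fascia in many mouse organs and are often described as a precursor-like, "universal" type. Those with Acta2, Tagln and Tnc are contractile, matrix-building myofibroblasts, the form common in wounds and tumors. Fibroblasts also secrete chemokines that draw leukocytes and respond to interferons.

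The libraries held between 54402632 and 125227747 UMIs, and the medians of members were 13507.5, 14567.5, 7272.5 and 11576 UMIs per cell. WT anti-PD1 stood apart in its makeup: a gate on Rhox5 and Prl2c2 took 41 tumor cells there, against 1612 in WT IgG and 2520 and 1741 in the A159V libraries. Mitochondrial genes took between 2.20% and 2.78% of member UMIs. Barcodes found in 2 libraries numbered 107, and 11 members carried one, with no pair of members sharing one. A doublet score, computed in every library, marked 0, 10, 1 and 1 of the members, which were kept. The 3 deepest cells gave 9.46%, 1.15%, 8.51% and 5.52% of member UMIs, so a few cells can set a level in the 3 small libraries.

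The members made up similar shares of the gated fibroblasts in every library and very different shares of the CD45- compartment. Among gated fibroblasts they were 71.4% (exact Clopper-Pearson interval 61.4 to 80.1), 74.8% (72.0 to 77.4), 71.8% (62.7 to 79.7) and 81.3% (73.9 to 87.3), and these intervals overlap. Among barcodes with more than 1000 genes and no Ptprc UMI they were 3.12% (2.44 to 3.92), 41.7% (39.4 to 44), 2.59% (2.07 to 3.20) and 4.94% (4.10 to 5.89). The share in WT anti-PD1 was 13.4 times that in WT IgG (10.5 to 16.9), beside the tumor cell counts above, which share its denominator. In A159V the share under anti-PD1 was 1.91 times that under IgG (1.45 to 2.51), and in A159V IgG it was 0.830 times that in WT IgG (0.607 to 1.14). Of all barcodes with more than 1000 genes, the same 3 ratios were 12.5 (9.82 to 15.9), 1.21 (0.917 to 1.60) and 1.18 (0.860 to 1.62). The last 2 of these intervals include 1, so the 1.91 depends on the denominator. Of the gated fibroblasts alone, the 3 ratios were 1.05 (0.919 to 1.19), 1.13 (0.986 to 1.30) and 1.01 (0.849 to 1.19).

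**Figure D1:**
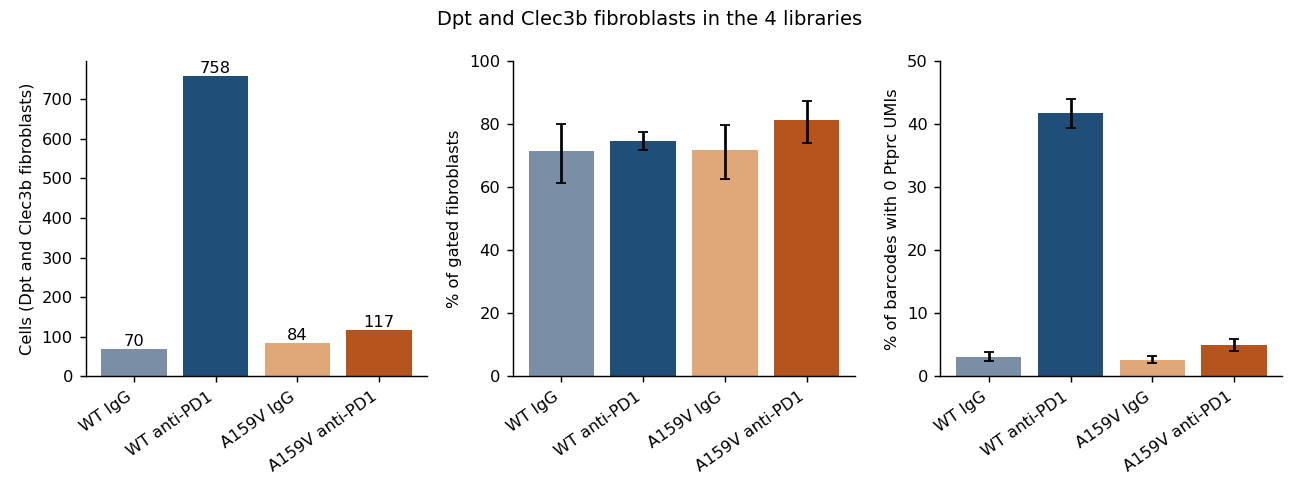
Number of Dpt and Clec3b fibroblasts (left), their share of gated fibroblasts in percent (middle) and their share of barcodes without Ptprc in percent (right) in the 4 libraries. Bars are values of 1 library each, error bars are exact 95% Clopper-Pearson intervals. The share of gated fibroblasts lies between 71.4% and 81.3%, while the share of barcodes without Ptprc is 41.7% in WT anti-PD1 and at most 4.94% elsewhere.

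The label fits the markers, including those that the rule did not use. Summed over member cells, Dpt (dermatopontin, a matrix protein, chr1:164796644-164824266 on the + strand of GRCm38) stood at 957, 1560, 1249 and 1359 CPM in the 4 libraries. Clec3b (tetranectin, chr9:123150946-123157432, + strand) stood at 793, 1239, 1067 and 1169, and Pi16 (a peptidase inhibitor, chr17:29317680-29330593, + strand) at 1117, 1343, 1280 and 1622. These 3 genes define the members, so their height is no finding. Scara5, a ferritin receptor (chr14:65666403-65764826, + strand), and Col14a1, a fibril-associated collagen (chr15:55307750-55520803, + strand), are independent of the rule's genes. Scara5 stood at 95.4, 158, 169 and 150 in members, against 5.03, 5.52, 0 and 2.59 in the other gated fibroblasts, and at 0.446 or less in immune cells. In A159V IgG, where the others held no Scara5 UMI, members were at least 22.3-fold higher, taking 3 UMIs in the others as the floor. Col14a1 stood at 1061, 1438, 1318 and 1602 in members against 496, 544, 443 and 380. Both markers were higher in members in each of the 4 libraries.

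**Figure D2:**
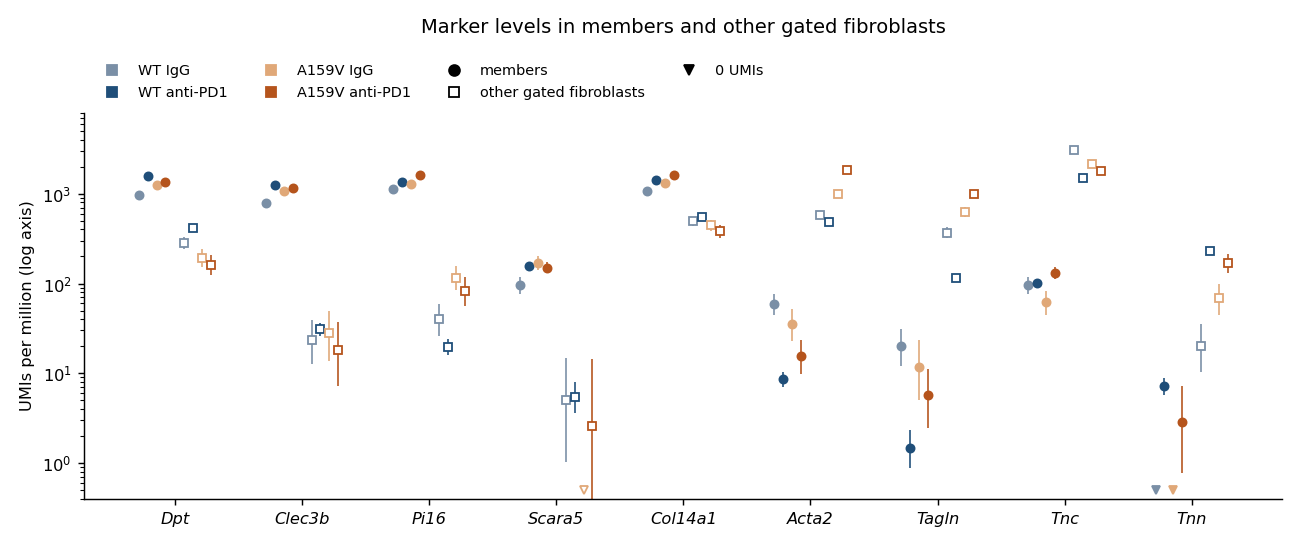
CPM (log axis) of the rule's genes and of the independent markers Scara5 and Col14a1, in members (filled circles) and other gated fibroblasts (open squares), by library (color). Vertical lines are exact 95% Poisson intervals and triangles mark 0 UMIs. Scara5 and Col14a1, which the rule did not use, lie higher in members in all 4 libraries.

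The side sums behind the rule separated most cells widely. The median member held 31.5, 54, 25 and 44 UMIs of Dpt, Clec3b and Pi16 and 0 of Acta2, Tagln, Tnc and Tnn in each. The others held medians of 6, 7, 3 and 2 against 53, 32, 32 and 26. At the threshold, 22 cells were members by 1 UMI and 17 were on the other side by 1 UMI. Summed, the cells just inside held 557 CPM of Dpt, 7.57 of Scara5 and 470 of Tnc, and those just outside 535, 0 and 596. Col14a1 was 428 just inside and 1045 just outside, the reverse of its order over all cells.

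Other cell types were little represented in members. The summed level of 8 T and NK cell genes ranged from 2.95 to 5 CPM, of 9 macrophage and monocyte genes from 19.9 to 33.9, and of 9 pericyte and smooth muscle genes from 17.8 to 28.0. Rhox5 and Prl2c2 are capped by the gate, and of the 6 other MC38 genes Krt8, Krt18, Epcam and Cldn4 were at 0 in all members. The 7 endothelial genes summed to between 58.7 and 112, of which Tek gave 54.5 to 82.8, with Cldn5 at 0, and the 6 keratinocyte genes to between 26.2 and 30.8, with Krt5, Krt14 and Krt15 at 0. Adipoq and Cidec, defining adipocyte genes, were at 0 too. The neutrophil, Schwann cell, skeletal muscle, mesothelial and red cell lists each summed to at most 6.42, and the part of these transcripts in the levels below was not tested.

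At a common depth, most members held a UMI of each defining gene. With every cell thinned to 5000 UMIs (62, 694, 71 and 109 members remained, and 8, 64, 13 and 8 shallower ones were left out), Clec3b was found in 82.3%, 88.5%, 88.7% and 92.7% of members, against 92.9%, 92.9%, 90.5% and 95.7% without thinning. Pi16 was found in 74.2% (61.5 to 84.5), 74.6% (71.2 to 77.8), 83.1% (72.3 to 91.0) and 94.5% (88.4 to 98), beside 84.3%, 82.8%, 85.7% and 98.3% without thinning. Scara5 was found in 24.2%, 42.2%, 45.1% and 45.0%, beside 48.6%, 58.0%, 53.6% and 57.3%. In up to 500 immune cells per library at the same depth, which should lack these genes, the shares for Pi16 were between 1.40% and 5.80% and for Scara5 at most 0.259%. Clec3b and Pi16 belong to the rule, so their shares are a description of the choice. Scara5, which does not, lay above its background in each library.

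Against the other gated fibroblasts of the same library, members carried more of many universal fibroblast genes and of some complement genes, and less of some contractile genes. In WT anti-PD1, the library with the most cells, 3881 genes reached 50 CPM in at least 1 of both profiles. Of these, 259 (6.67%) were at least 2-fold higher in members and 196 (5.05%) at least 2-fold lower, on log2 ratios with 1 CPM added, and the median ratio of all tested genes was -0.10. Of 3106 genes that could be compared in all 4 libraries, 121 (3.9%) were at least 2-fold higher in every one and 40 (1.29%) lower in every one. The members were split on expression, so these differences are a description of the split and carry no test.

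The universal and adventitial genes, which mark Pi16+ fibroblasts of vessels and fascia, were the list with the most genes on the members' side. All 30 passed the minimum in every library, and 20 were at least 2-fold higher in members in all 4, with none lower. In WT anti-PD1 alone 24 of 30 were higher, with a median log2 ratio of 2.09. Dpp4, a surface dipeptidyl peptidase that marks fibroblast progenitors, was 4.04, 3.35, 3.57 and 4.77 higher on the log2 scale. Sema3c, a secreted guidance protein, was 4.39, 2.41, 3.02 and 4.10 higher, and Gsn, the actin-severing protein gelsolin, 3.05, 3.45, 2.82 and 3.43. Every one of these ratios exceeded 2. Tnxb (tenascin X, which organizes collagen), Cd34, Cd55, Efemp1 and Igfbp5 were among the others of the 20. Ly6a, Mfap5 and Fbn1 were not, with Mfap5 at 1648 against 1619 CPM in WT IgG.

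Of 9 complement genes compared in all libraries, 5 were at least 2-fold higher in members in each, among them C1s1, C3, C4b and Cd55. C3, the central complement protein, stood 2.15, 3.29, 2.44 and 3.93 higher in log2, and C4b 1.39, 3.44, 2.25 and 2.96. Of 9 lipid genes compared in all libraries, 3 (Lpl, Apoe and Apod) were higher in each and none lower in each. Sfrp4, a secreted inhibitor of WNT signals, was 4.08, 3.89, 3.96 and 4.55 higher, and Chrdl1, a BMP antagonist, 4.33, 3, 1.64 and 3.55. Vegfd, a lymphatic growth factor, was higher in members everywhere, at 376, 139, 276 and 395 CPM against 48.6, 66.8, 43.0 and 46.6. Nrg1, a ligand of ERBB receptors, was lower everywhere, at 6.29, 14.2, 26.5 and 18.6 against 95.5, 139, 91.1 and 67.2. Among transcription factors, Klf4 and Nfib were higher and Runx1 lower in all 4 libraries.

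Some contractile genes lay on the other side. Of 20 myofibroblast genes compared in all libraries, 8 were at least 2-fold lower in members in each (Myl9, Tpm1, Tpm2, Cnn2, Lrrc15, Thbs1, Ncam1 and Spp1) and none higher. Tpm2, a muscle-type tropomyosin, was lower by 2.51, 2.95, 3.61 and 5.23 on the log2 scale. Matrix genes had no common side. Of 14 collagens 2 were lower in each library (Col8a1 and Col12a1) and 1 higher (Col4a1), and of 21 proteoglycan and elastic fiber genes 3 were higher in each (Ogn, Emilin2 and Tnxb) and none lower. Col12a1, a collagen of tendon and stroma, was lower by 1.86, 2.06, 1.74 and 2.19. Spp1 (osteopontin) was lower by 6.63, 3.01, 4.46 and 5.19, and it is abundant in tumor cells of these libraries too, at 1725 to 6595 CPM, whose part in the levels was not tested. Postn (periostin) and Col1a1, the main fibrillar collagen, differed less: Col1a1 stood at 10686 against 19997 in WT IgG and at 24629 against 26012 in WT anti-PD1. Cycling cells, called by at least 3 UMIs of 6 proliferation genes, were 18.6% (10.3 to 29.7), 3.69% (2.47 to 5.29), 11.9% (5.86 to 20.8) and 3.42% (0.939 to 8.52) of members and 33.3% (16.5 to 54.0), 20.7% (15.8 to 26.3), 24.2% (11.1 to 42.3) and 20% (6.83 to 40.7) of the others. The intervals of both classes are apart in WT anti-PD1 alone. The members were shallower than the others (median UMIs 13507.5 against 19104 in WT IgG), and these shares are not depth-matched.

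**Figure D3:**
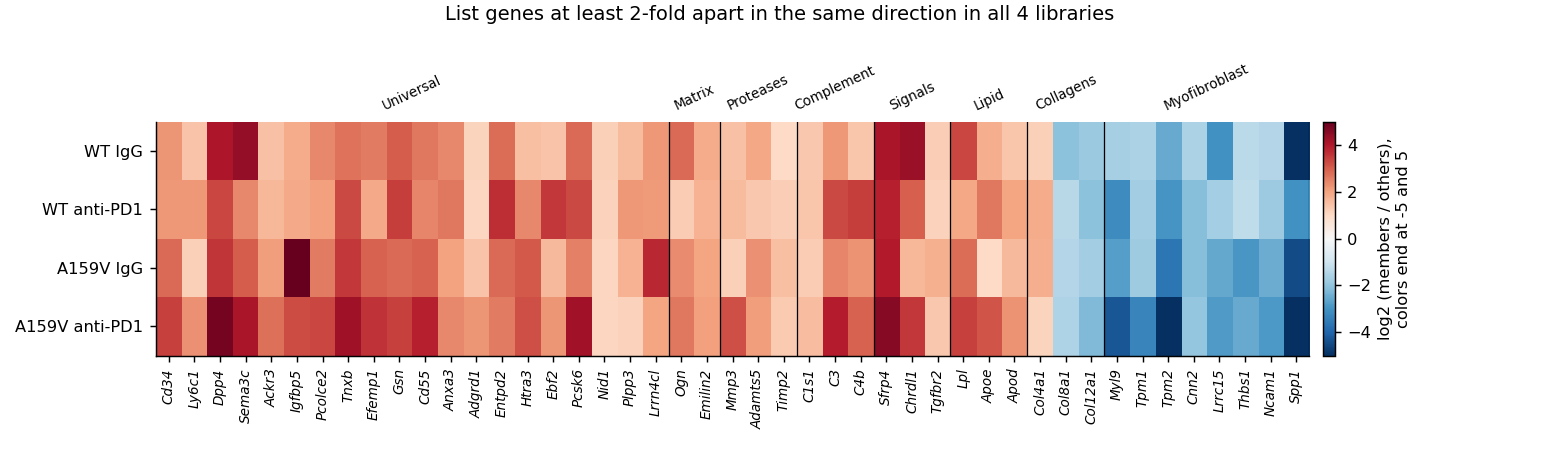
Log2 ratio of members over other gated fibroblasts (color, ending at -5 and 5) for genes of selected lists that were at least 2-fold apart in the same direction in all 4 libraries. Not every such gene is drawn: Vegfd, Nrg1, Klf4, Nfib and Runx1, among others, are left out. Rows are libraries and columns are genes, grouped by list. The 20 universal genes and the complement genes are red and the 8 myofibroblast genes are blue throughout.

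The genes furthest apart in WT anti-PD1 were less uniform. Smpd3, a neutral sphingomyelinase, stood at 497 CPM in members and 4.91 in the others (log2 6.40), and Itih5, a hyaluronan-binding inhibitor family member, at 315 and 9.61 (log2 4.90). Both were also at least 2-fold higher in the 3 small libraries. Eln, elastin, was higher by 5.21 there, by 1.56 in WT IgG and by 1.80 in A159V anti-PD1, but not in A159V IgG, where its log2 ratio was -0.25 (-0.59 to 0.09). Akr1c14 and Akr1c18, enzymes of steroid breakdown, were higher by 5.14 and 4.64. Ntrk2, the BDNF receptor, stood at 83.7 in members and 1.84 in the others. At the low end were Adgrl3, an adhesion receptor, at 4.93 against 103.03, Col7a1 at 4.77 against 65, and Bmpr1b, a BMP receptor, at 13.6 against 100. Fabp5, a fatty acid carrier, stood at 25.3 against 237, beside 1077 in immune cells of that library, whose part was not tested.

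Members also varied among themselves, along with Pi16. In WT anti-PD1 at 5000 UMIs per cell, 518 members (74.6%) held a Pi16 UMI and 176 (25.4%) did not. Of 3760 genes compared, 91 (2.42%) were at least 2-fold higher in the positive cells and 65 (1.73%) lower. Pi16 belongs to the rule, so this is a description as well. Among universal genes 9 of 30 were higher and none lower, including Dpp4 at 336 against 93.2 CPM and Sema3c at 868, higher by 1.53 on the log2 scale. Aldh1a3, which makes retinoic acid, stood at 59.1 against 3.41, and Tmem100, an endothelial and mesenchymal BMP target, at 134 against 36.4. Lower in Pi16-positive cells were Apoe, the lipid carrier, at 95.8 against 398, and Spp1 at 13.9 against 328. The small libraries gave the same direction for several: Sema3c was 1.45 (0.68 to 2.22) higher in log2 in WT IgG and 2.71 (1.55 to 3.87) in A159V IgG, Dpp4 1 (-0.01 to 2.01) and 2.26 (0.99 to 3.54), and Apoe was lower by 1.92 and 1.51. Spp1 was not uniform, at 0.21 (-1.61 to 2.02) in WT IgG and -3.33 (-4.45 to -2.22) in A159V IgG. Other genes turned. Cxcl9, an interferon-induced chemokine, was at -2.11 in WT anti-PD1 but at 2.50 (1.07 to 3.93) in WT IgG, the latter on 66 and 4 UMIs. Without thinning, 3 cells held 61.8% of its UMIs in WT IgG and 47.9% in WT anti-PD1, so a few cells can set its direction. Thsd4 was at 2.22 in WT anti-PD1 and at -2.71 (-4.89 to -0.53) in WT IgG, the latter on 2 and 5 UMIs. The comparisons in the small libraries rest on 46 against 16 and 59 against 12 cells. A159V anti-PD1, with too few negative cells, was not compared.

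The comparison of anti-PD1 with IgG in WT tumors asked how the antibody moves these cells, and its clearest feature was a lower level of interferon-stimulated and chemokine genes in WT anti-PD1. Of 3900 genes tested, 206 (5.28%) were at least 2-fold higher in WT anti-PD1 members than in WT IgG members and 334 (8.56%) at least 2-fold lower. Among type I interferon-stimulated genes, whose products restrain viruses, 14 of the 18 found in the files passed the minimum, and 13 of these were lower and none higher, with a median log2 ratio of -2.08 beside -0.02 over all genes. Isg15, a ubiquitin-like modifier, stood at 612 CPM (563 to 664), 61.2 (56.8 to 65.7), 656 (596 to 719) and 302 (274 to 332). Ifit3, of the interferon-induced tetratricopeptide proteins, stood at 252, 14.3, 199 and 91.4, and Ifit1, which binds viral RNA, at 330, 44.6, 175 and 111. For each of these, WT anti-PD1 was the lowest of the 4 libraries and A159V anti-PD1 the next. The 3 cells with most Isg15 gave 22.9% of its UMIs in WT IgG and at most 19.4% elsewhere, and 94.3% of WT IgG members held it against 30.5% in WT anti-PD1. Ifit3 and Ifit1 were more concentrated, with 37.5% and 40.3% of their WT IgG UMIs in 3 cells. They were held by 61.4% and 64.3% of WT IgG members, against 15.3% and 26.8% in WT anti-PD1, without thinning.

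The low level was found in other cells of the same library too. The summed interferon-stimulated list stood at 4712, 1275, 4950 and 2686 CPM in members, at 4150, 936, 4949 and 3044 in the other gated fibroblasts, and at 9527, 2049, 8681 and 6981 in immune cells. Tumor cells held 4115, 2358, 4164 and 3936. The list sum in the median member was 3866, 950, 4783 and 2233, with the middle 50% of WT anti-PD1 members between 563 and 1521 and that of WT IgG members between 2818 and 5675. WT anti-PD1 was the lowest library in each of the 4 cell classes, with only 41 tumor cells there, and A159V anti-PD1 was the next.

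Interferon-activated factors bind the interferon-stimulated response element, whose core was taken here as GAAANNGAAA with N for any base. It was searched on both strands, with overlapping matches counted, in the 250 bases before the start of each gene in the RefSeq promoter set (GRCm38.p6). It occurred in 821 of 27025 promoters (3.04%). On the interferon-stimulated list 7 of the 15 genes with a promoter held it (46.7%), on the interferon gamma list 9 of 22 (40.9%), on the chemokine list 3 of 19 (15.8%) and on the universal list 3 of 23 (13%). A match describes the letters and is not evidence of binding in these cells. Of the 4 genes of the interferon list furthest below WT IgG, the 3 with more than 1 match are shown from 5′ to 3′, with the matches in capitals. Isg15 is at chr4:156200819-156201068 on the - strand, with 3 overlapping matches whose first bases lie 78, 72 and 66 bases before the start. Ifit1 is at chr19:34640639-34640888 and Ifit3 at chr19:34583279-34583528, both on the + strand with 2 matches each.
Isg15: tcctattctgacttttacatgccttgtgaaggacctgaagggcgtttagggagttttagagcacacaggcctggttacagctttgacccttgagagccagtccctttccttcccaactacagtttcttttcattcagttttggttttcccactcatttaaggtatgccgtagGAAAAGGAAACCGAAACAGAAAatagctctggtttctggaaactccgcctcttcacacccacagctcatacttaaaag
Ifit1: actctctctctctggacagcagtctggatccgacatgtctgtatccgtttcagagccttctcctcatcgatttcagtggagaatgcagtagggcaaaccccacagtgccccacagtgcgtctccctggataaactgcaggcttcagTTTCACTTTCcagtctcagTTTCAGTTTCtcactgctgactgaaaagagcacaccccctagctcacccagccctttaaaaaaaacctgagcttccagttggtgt
Ifit3: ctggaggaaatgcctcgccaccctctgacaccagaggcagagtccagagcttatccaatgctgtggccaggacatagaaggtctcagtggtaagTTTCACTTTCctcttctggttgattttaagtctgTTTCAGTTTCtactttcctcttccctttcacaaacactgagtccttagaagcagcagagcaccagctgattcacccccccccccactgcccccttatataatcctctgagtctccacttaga

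Genes of the interferon gamma response, which in tumors comes chiefly from T and NK cells, were lower to a smaller extent. Of 18 tested, 10 were at least 2-fold lower in WT anti-PD1 and none higher, with a median of -1.04. Iigp1, an immunity-related GTPase, stood at 452 in WT IgG and 111 in WT anti-PD1. Class I presentation genes differed little: B2m stood at 2179, 1945, 2136 and 1776 across the 4 libraries, and H2-K1 at 1718, 1509, 1900 and 1471. Irf1 stood at 49.2, 41.1, 47.1 and 77.1.

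Chemokines and cytokines followed the same order between the WT libraries. Of 16 tested, 10 were at least 2-fold lower in WT anti-PD1 and none higher, with a median of -1.64. Summed, the list stood at 9736 in WT IgG members and 3583 in WT anti-PD1 members. In the other gated fibroblasts it was lower in WT anti-PD1 too, at 5199 and 3564. Cxcl13, the B cell attractant (chr5:95956951-95961068, + strand), stood at 759 (704 to 816), 13.6 (11.6 to 15.8), 427 (379 to 479) and 275 (248.7 to 304) CPM in the 4 libraries. Cxcl14, which acts on monocytes and dendritic cells, stood at 1854, 52.5, 1299 and 1031. WT anti-PD1 was far below the other libraries for both. At 5000 UMIs per cell Cxcl13 was found in 45.2% (32.5 to 58.3), 4.47% (3.05 to 6.28), 38.0% (26.8 to 50.3) and 26.6% (18.6 to 35.9) of members, beside 51.4%, 8.18%, 45.2% and 29.9% without thinning and at most 0.2% of immune cells. Cxcl14 was found in 48.4%, 11.0%, 42.3% and 47.7% (unthinned 52.9%, 22.3%, 46.4% and 50.4%), and Ccl19, which draws T cells and dendritic cells by CCR7, in 22.6%, 4.18%, 18.3% and 16.5% (unthinned 37.1%, 7.78%, 29.8% and 26.5%). The lower levels thus went with fewer positive members. Cxcl13 was concentrated in few cells, since 3 cells held 50.1% of its UMIs in WT IgG. Cxcl10, the interferon-induced ligand of CXCR3, stood at 491, 31.7, 88.4 and 123, and 3 cells held 71.0% of it in WT IgG. At 5000 UMIs per cell Cxcl10 was found in 30.6%, 8.79%, 18.3% and 26.6% of members. Among immune cells its shares were higher, at 54.4%, 33.4%, 38.1% and 44.4%. Ccl2 and Ccl7, monocyte attractants, stood at 700 and 790 in WT IgG against 139 and 155 in WT anti-PD1. Immune cells with Ccl2 were 49.6%, 32%, 26.9% and 44.8%, and with Ccl7 30.4%, 23.4%, 20.2% and 28%. The part of immune transcripts in the levels of these genes was not tested. Cxcl12, the ligand of CXCR4, was less apart, at 1408, 738, 800 and 924, and Ccl11 (eotaxin) stood at 947, 710, 566 and 819.

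**Figure D4:**
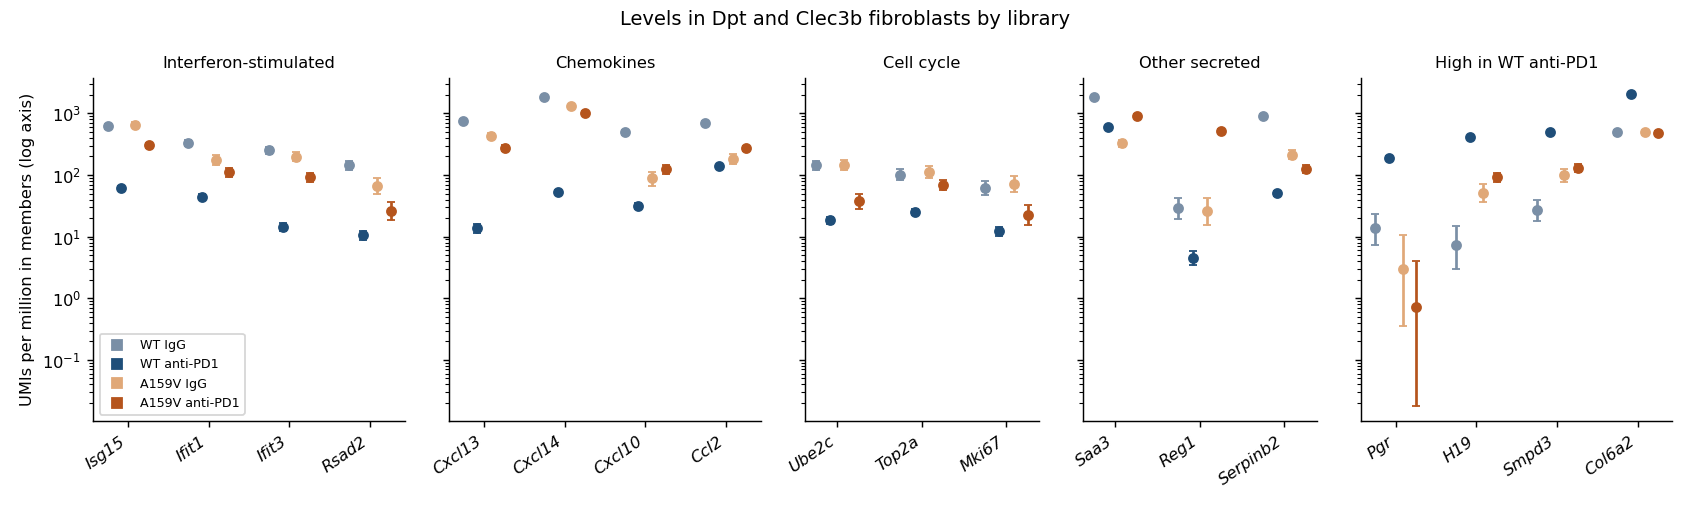
CPM in members (log axis) for genes of 5 groups, by library (color), with exact 95% Poisson intervals. Interferon-stimulated genes and chemokines are lowest in WT anti-PD1, the cell cycle genes are lower in both anti-PD1 libraries, and Pgr, H19, Smpd3 and Col6a2 are highest in WT anti-PD1.

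Of 7 cell cycle genes tested 6 were lower in WT anti-PD1, with a median of -2.25. The 13 cycling members of WT IgG held 97.1% of the UMIs of the 6 proliferation genes there. Ube2c, a mitotic ubiquitin enzyme, stood at 142, 18.6, 146 and 37.8 across the 4 libraries. Of 16 glycolysis and hypoxia genes 6 were lower and none higher, with a median of -0.83, among them Hk2 (hexokinase) at 182 against 42.4 and Ldha (lactate dehydrogenase) at 465 against 189. Adm (adrenomedullin, induced by low oxygen) stood at 349 against 45.0. Of 10 lipid genes 4 were lower, including Apod at 1101 against 219. Among proteases and inhibitors the directions were mixed, 3 of 19 each way: Timp1, an inhibitor of metalloproteinases, stood at 1152 in WT IgG and 307 in WT anti-PD1 and Mmp3 (stromelysin) at 2386 and 699, while Mmp14, a membrane-bound collagenase, stood at 651 and 1392. Ccn2 (connective tissue growth factor) stood at 354 and 16.9. The summed cell cycle list was lower in WT anti-PD1 in the other gated fibroblasts too, at 1466 and 890, beside 915 and 271 in members. The summed glycolysis and hypoxia list stood at 4687 and 3205 in the others, beside 3830 and 1879 in members.

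Matrix and myofibroblast genes went both ways. Of 13 collagens, 3 were at least 2-fold higher in WT anti-PD1 and 2 lower, with a median of 0.65, and of 22 proteoglycan and elastic fiber genes 1 was higher and 1 lower, with a median of 0.03. Col6a1 and Col6a2, chains of collagen VI, stood at 704 and 495 in WT IgG and at 2109 and 2032 in WT anti-PD1, while Col4a1 and Col4a2, of the basement membrane, stood at 769 and 354 against 208 and 104. The summed collagen list stood at 7799 and 12717 in members. It was higher in WT anti-PD1 in the other gated fibroblasts too, at 12446 and 16481. Of 19 myofibroblast genes 5 were higher, namely Postn, Lrrc15, Thbs2, Itga11 and Spp1, and 2 lower, Thbs1 and Ltbp2. The summed myofibroblast list was higher in WT anti-PD1 in members (9440 and 13339) and lower in the other gated fibroblasts (19373 and 16958). Lrrc15, a marker of TGF-beta-driven tumor fibroblasts, stood at 27.3 in WT IgG members and 124 in WT anti-PD1 members, below the 404 of the others there. The universal list showed no common direction, with 4 of 30 higher, 2 lower and a median of 0.02. Cd34 stood at 465 and 955 and Igfbp5 at 263 and 900, while Ly6a (Sca-1) stood at 3146 and 1300, the latter the lowest of the 4 libraries.

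The single genes furthest up in WT anti-PD1 included H19, Smpd3 and Pgr. H19, an imprinted growth-restraining RNA, stood at 7.34 CPM (2.95 to 15.1), 412 (401 to 423), 51.6 (35.9 to 71.7) and 92.1 (76.9 to 109). Pgr, the progesterone receptor (chr9:8899833-8968611, + strand), stood at 13.6 (7.25 to 23.3), 192 (184 to 200), 2.95 (0.357 to 10.6) and 0.714 (0.0181 to 3.98), of which the last 2 rest on 2 UMIs and 1 UMI. At 5000 UMIs per cell Pgr was found in 4.84% (1.01 to 13.5), 36.2% (32.6 to 39.9), 0% and 0% of members, where 0 of 71 and 0 of 109 cells have exact upper bounds of 5.06% and 3.33%. Without thinning the shares were 10.0%, 47.8%, 1.19% and 0.855%, and no immune cell held it at the common depth. The share was thus highest in WT anti-PD1. Pgr was named for its high ratio of WT anti-PD1 over WT IgG, so its height over WT IgG follows from that choice. The intervals cover counting error in 1 library each. H19 was found in 3.23%, 39.3%, 12.7% and 11.0% (unthinned 5.71%, 49.3%, 13.1% and 17.9%), and Smpd3 in 9.68%, 34.4%, 19.7% and 27.5% (unthinned 18.6%, 40.2%, 25% and 29.9%). Adgrb3, a brain-type adhesion receptor, had no UMI in WT IgG and 53.3 CPM in WT anti-PD1, at least 16.9-fold higher with 3 UMIs as the floor. Col6a5, another collagen VI chain, stood at 27.3, 281, 29.5 and 67.8. Reg3g, an antimicrobial lectin, was at the other end, with 63 UMIs in WT IgG, 92.1% of them in 3 cells, and 3 UMIs in WT anti-PD1.

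The span of genes moved with this comparison. With the genes cut into 4 equal groups by their span on the genome, the shortest group (median 5.52 kb) had a median log2 ratio of WT anti-PD1 over WT IgG of -0.44, the next groups of -0.19 and 0.11, and the longest (median 163 kb) of 0.35. For A159V anti-PD1 over A159V IgG the 4 medians ran the same way over a smaller range, from -0.17 through -0.10 and -0.02 to 0.07, and for members over other gated fibroblasts in WT anti-PD1 from -0.28 to 0.09. For A159V IgG over WT IgG they lay between -0.05 and 0.05. Introns were counted in these data, so unspliced RNA of long genes adds UMIs, and its part in the differences was not tested. Gm42418, which overlaps ribosomal RNA repeats, took 1.12%, 4.43%, 1.57% and 2.95% of member UMIs, and its part was not tested beyond leaving it out of the totals. With Gm42418 and AY036118 left out, WT anti-PD1 over WT IgG gave 243 genes higher and 298 lower, in place of 206 and 334. That is 44.9% of the called genes higher in place of 38.1%.

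**Figure D5:**
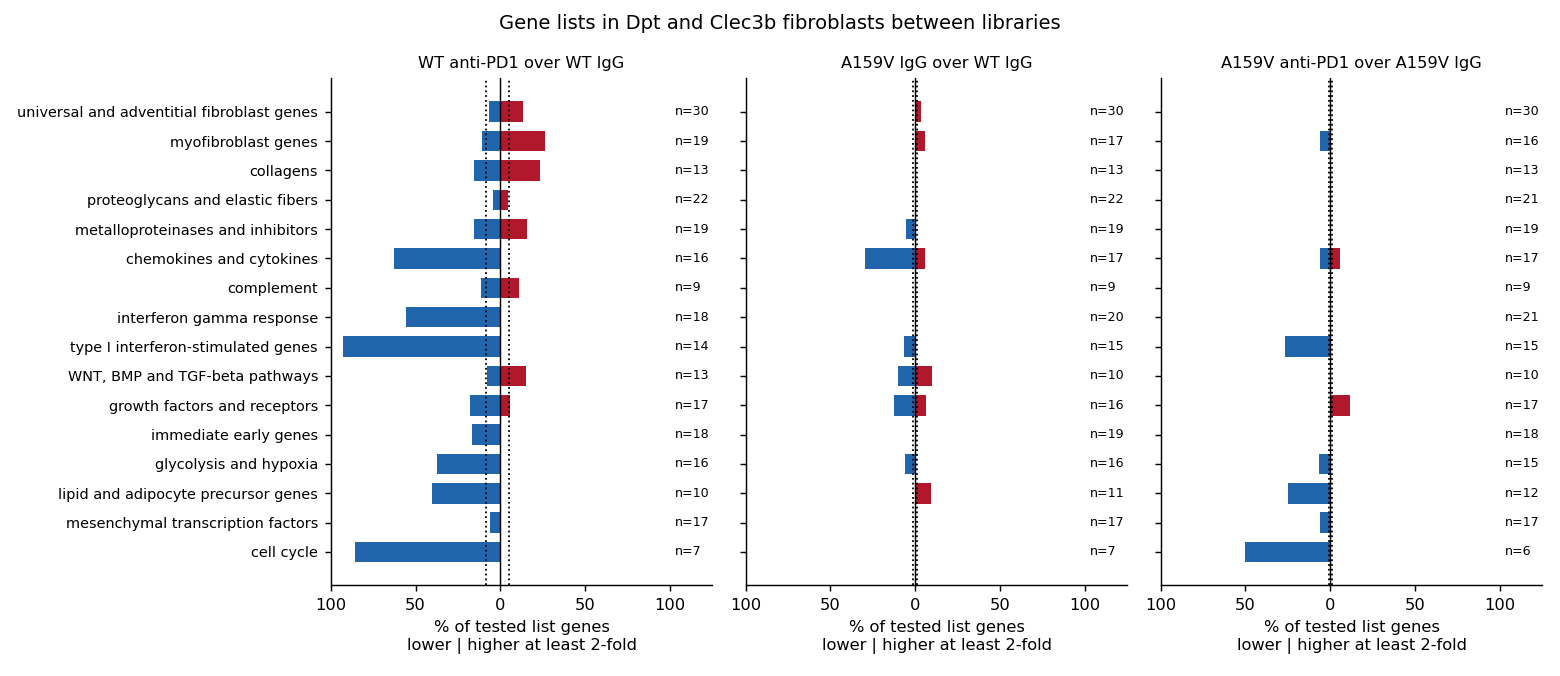
Share of the tested genes of each list, in percent, that were at least 2-fold lower (blue, left) or higher (red, right) in members of the first library named than in the second. The number of tested genes stands at the right of each bar, and dotted lines mark the share over all genes tested. Interferon-stimulated, chemokine and cell cycle genes reach furthest left for WT anti-PD1 over WT IgG, with 13 of 14, 10 of 16 and 6 of 7 genes.

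The comparison of A159V IgG with WT IgG asked how members of the IgG libraries differ between tumors with and without the mutation. The 2 libraries were close. Of 3769 genes tested, 36 (0.955%) were at least 2-fold higher in A159V IgG and 59 (1.57%) lower. Chemokines were the list with the most genes apart: 5 of 17 were lower and 1 higher, with a median of -0.68. Ccl2 stood at 700 in WT IgG and 184 in A159V IgG, Cxcl1, which draws neutrophils, at 330 and 146, and Ccl7 at 790 and 385. Cxcl9 and Cxcl10 stood at 178 and 491 in WT IgG and at 50.1 and 88.4 in A159V IgG, and 3 cells held 61.8% and 71.0% of their UMIs in WT IgG. At 5000 UMIs per cell Ccl2 was found in 49.6% of immune cells in WT IgG and 26.9% in A159V IgG. For Cxcl10 these shares were 54.4% and 38.1%, and the part of immune transcripts was not tested. Cxcl2 stood at 22.0 and 122, with 81.9% of its A159V IgG UMIs in 3 cells, beside 1771 in immune cells of that library, whose part was not tested. In the other gated fibroblasts Ccl2 had the opposite order, at 250 in WT IgG and 999 in A159V IgG.

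Interferon genes did not differ in that way between the IgG libraries. Of 15 interferon-stimulated genes 1 was at least 2-fold lower (Rsad2, at 144 and 66.3) and none higher, with a median of 0.10. The 3 cells with most Rsad2 held 65.7% of its UMIs in WT IgG, and 31.4% of WT IgG and 31.0% of A159V IgG members held it. Of 20 interferon gamma response genes none passed 2-fold either way. Universal, matrix, complement and myofibroblast lists had medians between -0.25 and 0.14. Igfbp5, which binds insulin-like growth factors, stood at 263 and 820.5 and Sfrp2, a WNT modulator, at 261 and 710. Saa3, an acute-phase protein, stood at 1842, 609, 329 and 921, with 3 cells holding 53.2% of it in WT IgG and 55.2% in A159V IgG. Fabp4, an adipocyte and endothelial fatty acid carrier, stood at 35.6 and 146, and 3 cells held 61.6% of it in A159V IgG. Mgp, an inhibitor of calcification, stood at 363 and 69.2, with 46.8% of its WT IgG UMIs in 3 cells, and Bmp3 at 9.43 and 58.9.

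The comparison of anti-PD1 with IgG in A159V tumors asked how the antibody moves the members there. Of 3736 genes tested, 33 (0.883%) were at least 2-fold higher under anti-PD1 and 36 (0.964%) lower. With another scaling, the median of ratios, the split was 51 higher and 25 lower, that is 67.1% of the called genes higher in place of 47.8%. Of 15 interferon-stimulated genes 4 were lower (Isg15, Ifit3, Rsad2 and Irf7), none was higher, and the median was -0.78. Isg15 stood at 656 and 302 and Irf7, the regulator of interferon production, at 250 and 111. Of 6 cell cycle genes 3 were lower, with Mki67 at 72.2 and 22.8 and Ube2c at 146 and 37.8, beside the 11.9% and 3.42% of members that were cycling. Without the cycling cells the log2 ratio of Mki67 was 0.82 in place of -1.62. Of 12 lipid genes 3 were lower, with Fabp4 at 146 and 12.1.

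Reg1 was among the single genes that were higher under anti-PD1 in A159V. Reg1, a lectin of the regenerating family, stood at 29.3 (19.5 to 42.4), 4.52 (3.41 to 5.89), 26.5 (15.7 to 41.9) and 520 (483 to 559) CPM. At 5000 UMIs per cell it was found in 4.84% (1.01 to 13.5), 1.01% (0.406 to 2.07), 11.3% (4.99 to 21) and 23.9% (16.2 to 33.0) of members and in none of the immune cells, and the last 2 intervals overlap. Without thinning the shares were 5.71%, 2.51%, 9.52% and 29.9%. The 3 cells with most Reg1 held 43.3% of its UMIs in A159V anti-PD1. Cxcl9 stood at 50.1 under IgG and 241 under anti-PD1 in A159V, and 3 cells held 72.5% of it in the latter. Hgf, the ligand of MET, stood at 16.2 and 51.4 and Gas6, the ligand of AXL, at 357 and 720, and these were the 2 of 17 growth factors that were higher. Epas1 (HIF-2 alpha) stood at 50.1 and 149. Chemokines as a list showed no common direction, with 1 higher, 1 lower and a median of 0.12 over 17 genes. The universal list had none of 30 past 2-fold and a median of -0.13.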

How the data were processed

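Single-cell suspensions of MC38 tumors were profiled in 4 libraries with 10x Genomics 3′ chemistry. The deposited values are raw UMI counts per gene and barcode for barcodes called as cells, which the authors made with Cell Ranger and the mm10 reference with introns counted, before their own background and doublet removal. The file headers give Cell Ranger 7.2.0 and the submitters' processing notes 5.0.1. Members and lists were chosen with earlier results of these data known, and the splits into parts use measured values.

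For each library and cell class, summed UMIs were scaled to CPM (per 1000000) with exact Poisson intervals. Log2 ratios used a pseudocount of 1 CPM, on genes of at least 50 CPM in either profile, and a difference of at least 2-fold stood in for a call, since 1 library per group allows no test. Named genes were the 10 highest and 10 lowest ratios per comparison, leaving out the rule's genes, mitochondrial, ribosomal, hemoglobin, immunoglobulin and T cell receptor genes, unnamed predicted genes and genes over 5 times higher in immune, tumor or endothelial cells of the library where the ratio is high, plus members of the lists and, within them, the genes with the largest ratios. Genes of the lists named beyond that rule, as examples of a level that differed or did not, were chosen after their values were seen. Immune cells held at least 1 Ptprc UMI and fewer than 5 collagen UMIs. Detection shares used cells randomly thinned to 5000 UMIs each. Doublets were scored against simulated doublets in each library (0.8% per 1000 cells marked) and removed only as an alternative, and no background RNA was subtracted. Identifiers were joined to GENCODE M21 (GRCm38), which held 32158 of 32285, and promoters came from RefSeq. Ratios were tested on simulated data. Some genes are not reported here. Other settings, 15 listed at the start and 4 added after the data were seen, covered the gate, depth, scaling, pseudocount, minimum, doublets, cycling cells and the deepest cells. Python 3.11.15, numpy 2.4.6, scipy 1.17.1, pandas 2.3.3, scikit-learn 1.9.0 and matplotlib 3.10.9 were used.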

Additional observations from a re-analysis of the deposited data

Results flagged for a closer look

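Of 39 genes named in either comparison of anti-PD1 with IgG, 3 were past 2-fold in opposite directions in WT and A159V. Only genes of at least 50 CPM in a library of each genotype could be flagged, so Pgr, for example, could not. The 39 were named for extreme values of these same ratios, so the count is a description. Reg3g, an antimicrobial lectin, had a log2 ratio of -5.75 in WT members and 1.59 in A159V members, on 63 and 3 UMIs in WT (IgG, then anti-PD1) and 28 and 177 in A159V (likewise). Cxcl9, an interferon-induced chemokine, had ratios of -1.53 and 2.25. Saa3, an acute-phase protein, had ratios of -1.59 and 1.49. The differences between genotypes were not tested, since each group is 1 library. The 3 cells with most UMIs held 92.1%, 100%, 75% and 63.3% of Reg3g, 61.8%, 47.9%, 44.1% and 72.5% of Cxcl9 and 53.2%, 29.6%, 55.2% and 44.1% of Saa3 in that order of libraries.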

How the results depend on the processing

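Counts of genes past 2-fold depended most on the minimum level. With 20 CPM in place of 50, 395 genes were higher and 373 lower in members than in other gated fibroblasts of WT anti-PD1, while anti-PD1 against IgG in WT gave 421 and 541, A159V against WT under IgG gave 195 and 197, and anti-PD1 against IgG in A159V gave 115 and 154. With 100 CPM, 116 were lower in members than in the others, and the library comparisons gave 110 and 222, 12 and 33, and 10 and 13. A pseudocount of 10 CPM gave 15 and 20 for A159V anti-PD1 over A159V IgG, and median-of-ratios scaling gave 51 higher. More genes pass a lower minimum by construction; the cause of the other shifts was not tested. Asking for a Dpt side over 2 times the Acta2 side made the members' share of gated fibroblasts in WT anti-PD1 70.1%. The ratio of Mki67 in A159V anti-PD1 over A159V IgG turned from -1.62 to 0.82 with cycling cells left out, as that alternative removes the cells that hold the gene. Over all these settings, 1250 of 1360 ratios of named genes stayed within their counting interval. The minima of 20 and 100 CPM leave each ratio unchanged, so under them no ratio could move. Of 1079 list medians 1068 kept their place inside or past 2-fold, where the sign was checked only for medians past 2-fold. Of 52 shares of members with a UMI, 18 lay below their counting interval at 3000 UMIs per cell and 21 lay above it without thinning, as more UMIs find more genes by construction. No paired analysis was possible because no group has a replicate, and for the same reason no replicate could be left out. Depth limits the 70, 84 and 117 members of the small libraries, where 3 cells can hold most UMIs of a gene.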

Other observations

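Esr1 and Greb1, genes of the estrogen response, were on no list and were chosen after their values were seen; both stood higher in WT anti-PD1 members, as Pgr was. Esr1, the estrogen receptor alpha gene, stood at 175, 456, 134 and 176 CPM in the 4 libraries (WT before A159V and IgG before anti-PD1). Esr1 (chr10:4611593-5005614, + strand) is among the longest genes, whose median log2 ratio of WT anti-PD1 over WT IgG was 0.35. The part of gene span in its level was not tested. Greb1, a target of the estrogen receptor, stood at 9.43, 72.8, 1.47 and 5, the last 2 on 1 and 7 UMIs. Esr1 was at least 2-fold higher in members than in other gated fibroblasts in each library, and stood at 63.7, 132, 60.7 and 51.7 in the others.

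Prg4 (lubricin, a surface lubricant of joints and fascia), also chosen after its values were seen, stood at 587, 72.1, 605 and 834 CPM in members. At 5000 UMIs per cell it was found in 79.0% (66.8 to 88.3), 16.6% (13.9 to 19.5), 83.1% (72.3 to 91.0) and 89.0% (81.6 to 94.2) of members, beside 81.4%, 29.4%, 89.3% and 94.0% without thinning and at most 0.4% of immune cells. The interval of WT anti-PD1 lies below the other 3, which overlap one another, but each covers counting error in 1 library only. Since Prg4 was chosen for its values, this is a description.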
